A study of Caenorhabditis elegans with 2 samples.

Results

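The regions described here are peaks of the protein MADF-10 that lie between genes of the nematode Caenorhabditis elegans. They were taken from the authors' list of reproducible peaks on genome build ce11 by annotation alone. A peak was chosen if its summit, the position of strongest enrichment, lay in the nuclear genome, in no annotated gene of any kind and not within 200 bp of a tRNA gene. The summit also had to lie outside every window from 1000 bp upstream to 200 bp downstream of a protein-coding transcript start. Of 1847 nuclear reproducible peaks 302 met this rule (16.4%, exact 95% interval 14.7 to 18.1), in 298 separate intervals. The list also holds 22 peaks of the mitochondrial DNA. The rule used no measured value, but the list itself holds the strongest pooled regions, so that each of the 302 has a signal of at least 92.5.

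The data are chromatin immunoprecipitation followed by sequencing (ChIP-seq) with an antibody against GFP. The strain was OP508, genotype unc-119(tm4063) III; wgIs508, in which a stably integrated transgene makes MADF-10 with a C-terminal GFP-FLAG tag. Young adult hermaphrodites were taken whole, 68 h after synchronisation of starved L1 larvae, in 2 biological replicates of 1 group. What is mapped is thus the tagged protein of a transgenic line, averaged over all tissues, and the sources used here give no copy number of the transgene. A control experiment is named in the labels and was not analysed here. Read numbers are likewise unknown, and the authors' signal value, a measure of enrichment, is compared within a list only.

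MADF domains are related to the Myb fold, and the MADF protein Adf-1 of Drosophila binds DNA. In the compact worm genome most regulatory elements lie close to a transcript start, and stretches between genes can also hold distal enhancers, starts of non-coding RNA genes, ends of genes and repeats. On the X chromosome, such stretches also contain recruitment elements of the dosage compensation complex, which lowers transcription from both X chromosomes of hermaphrodites. A sequence known as the motif enriched on X marks many of these elements. No position named below was compared with a list of known elements.

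Sequence at the 5 strongest summits can be set against the A- and T-rich DNA that is common between worm genes. Each line gives the nearest protein-coding gene and 101 bases centred on the summit, plus strand, from the RefSeq genome sequence of WBcel235, the assembly behind ce11. Capitals mark TCTCTC, the reverse complement of GAGAGA.
hif-1, chrV:20778370-20778470: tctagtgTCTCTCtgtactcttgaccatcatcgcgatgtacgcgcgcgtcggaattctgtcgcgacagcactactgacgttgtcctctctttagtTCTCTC
F38A6.4, chrV:20776924-20777024: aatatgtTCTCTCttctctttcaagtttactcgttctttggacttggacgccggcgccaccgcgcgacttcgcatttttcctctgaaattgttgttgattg
mboa-1, chrX:16024753-16024853: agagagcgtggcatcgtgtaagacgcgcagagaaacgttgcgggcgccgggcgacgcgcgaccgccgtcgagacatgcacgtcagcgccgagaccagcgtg
nfki-1, chrX:15353946-15354046: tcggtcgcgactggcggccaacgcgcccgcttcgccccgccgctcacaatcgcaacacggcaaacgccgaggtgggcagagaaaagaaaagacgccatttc
sup-26, chrIII:4282280-4282380: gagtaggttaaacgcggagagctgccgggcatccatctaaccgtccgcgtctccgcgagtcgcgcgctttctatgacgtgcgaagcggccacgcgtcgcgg
The G+C content of these windows was 51.5% at hif-1, 45.5% at F38A6.4, 68.3% at mboa-1, 64.4% at nfki-1 and 65.3% at sup-26. The median over weak regions between genes was 33.7%, where weak regions are the 50% of pooled regions with the lowest signal, without those that touch a reproducible peak. It was 45.5% over the 302 and 48.5% over all nuclear reproducible peaks, which is above F38A6.4. A higher G+C content than in weak regions was thus no trait of these 5 alone.

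A word of 8 letters, GCGCAGGG, recurred at summits on X. It is the core of the motif enriched on X, and all 8 peaks between genes that hold it within 50 bp of the summit are shown, with the core in capitals, each on the strand that reads GCGCAGGG.
W02H3.3, chrX:11094214-11094245, minus strand: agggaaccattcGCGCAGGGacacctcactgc
F20B6.9, chrX:4209254-4209285, minus strand: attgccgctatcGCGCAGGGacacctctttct
xol-1, chrX:8036423-8036454, plus strand: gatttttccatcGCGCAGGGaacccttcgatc
gtr-1, chrX:806662-806693, plus strand: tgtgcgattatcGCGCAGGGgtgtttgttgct
F22H10.2, chrX:16682160-16682191, minus strand: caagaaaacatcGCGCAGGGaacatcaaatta
T24D8.6, chrX:2364887-2364918, minus strand: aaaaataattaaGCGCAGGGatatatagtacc
col-185, chrX:13514546-13514577, plus strand: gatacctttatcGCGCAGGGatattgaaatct
dpy-23, chrX:4395603-4395634, plus strand: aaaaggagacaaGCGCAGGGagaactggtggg
In 6 of the 8 the letters TC stand directly before the core, and in 7 of the 8 an A follows it.

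On the autosomes another word, GAGACGCAG, recurred at summits. The 6 strongest carriers on chromosomes II, III, IV and V are shown with this word in capitals, each on the strand that reads GAGACGCAG.
T04C4.3, chrIV:2219573-2219605, plus strand: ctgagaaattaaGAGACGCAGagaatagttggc
rho-1, chrIV:16492467-16492499, plus strand: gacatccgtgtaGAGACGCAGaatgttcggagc
T19C3.4, chrIII:623937-623969, plus strand: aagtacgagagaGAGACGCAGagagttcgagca
Y39E4B.6, chrIII:13068535-13068567, minus strand: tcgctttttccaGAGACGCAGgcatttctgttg
pptr-1, chrV:16356067-16356099, minus strand: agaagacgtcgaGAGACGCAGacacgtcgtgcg
mrpl-51, chrIV:12032602-12032634, minus strand: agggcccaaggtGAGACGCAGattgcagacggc
Of the 19 carriers on these chromosomes, 16 have an A directly after the word.

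The strongest region of the whole series was one of these peaks. It lay on chromosome V from 20777792 to 20779270, in a divergent stretch of 5037 bp, with its summit 1987 bp upstream of hif-1, which encodes the hypoxia-inducible transcription factor. Pooled, it reached a signal of 19717, and the replicates had 6157 and 13623, rank 1 in each of the 3 lists. A second peak of the same stretch, 1605 bp upstream of F38A6.4, had 3404 pooled, 1291 in replicate 1 and 2133 in replicate 2. These peaks belonged to a group of 4 within 17.0 kb, whose weakest member had 99.3.

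Next in strength came peaks on X and chromosome III. The peak in the gap next to the miRNA gene mir-84, of the let-7 family, lay 6003 bp upstream of mboa-1 and had 2687 pooled, 906 in replicate 1 and 1799 in replicate 2. The peak 1242 bp upstream of nfki-1, an IkB-related gene, had 2575 pooled, 821 in replicate 1 and 1758 in replicate 2. At sup-26, which encodes an RNA-binding protein of the sex determination pathway, the summit lay 2106 bp upstream of the start, with 1166 pooled, 380 in replicate 1 and 788 in replicate 2. All of these values kept the same order in both replicates.

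**Figure D1:**
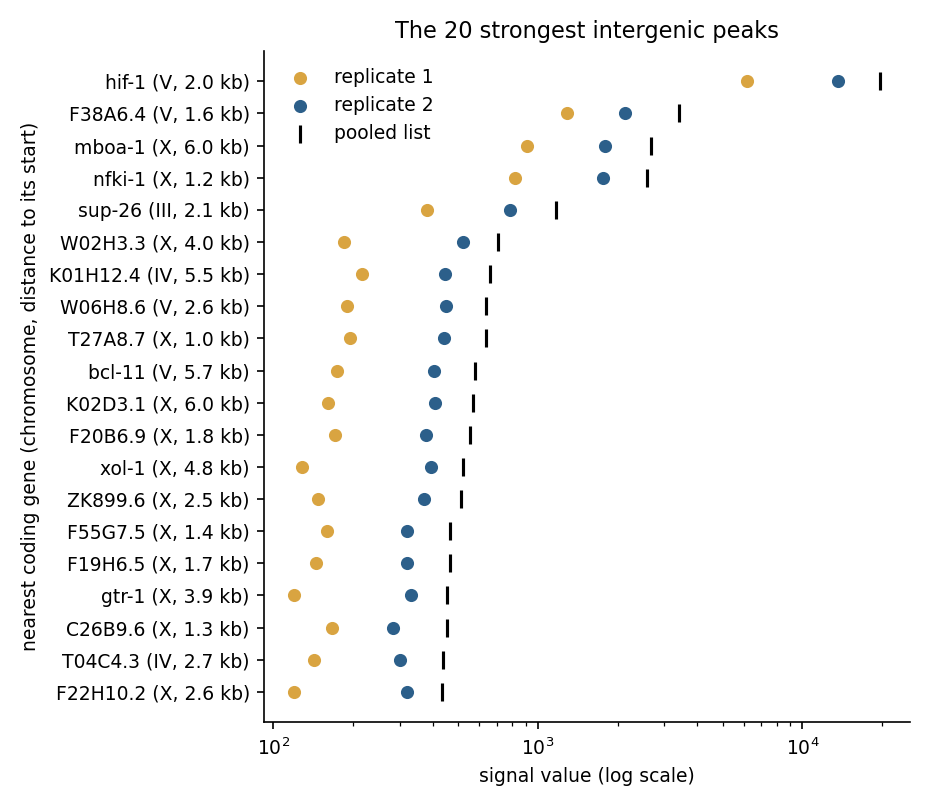
The 20 strongest peaks between genes, with the nearest protein-coding gene, its chromosome and the distance to its start. The horizontal axis is the signal value on a log scale, in replicate 1, replicate 2 and the pooled list. On X lie 13 of the 20, and 4 of the strongest 10, 17 of the strongest 50 and 33 of the strongest 100. Of all nuclear reproducible peaks 22.3% lie on X, and such counts by rank were not made for them.

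The remaining 15 of the 20 strongest peaks had pooled signals from 707 down to 435. They included places near bcl-11 (577), a zinc-finger transcription factor gene, near xol-1 (521), the switch gene of sex determination and dosage compensation, and between F20B6.9 and hpk-1 (552), a homeodomain-interacting protein kinase gene. The peak 2744 bp upstream of T04C4.3 and next to fnip-2 had 438. The rest of these 20 were nearest to K01H12.4 (660), T27A8.7 (636), K02D3.1 (569), ZK899.6 (513), F55G7.5 (466), F19H6.5 (465), C26B9.6 (452) and, among carriers of the core shown above, W02H3.3, gtr-1 and F22H10.2. A peak 2585 bp upstream of W06H8.6 (637) shares its interval with at least 1 stronger summit and belonged to the largest group, 8 peaks in 6 intervals over 22.4 kb of chromosome V, with dmd-7 and str-206 as further neighbours. No peak between genes lay within 20 kb of madf-10 itself.

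Over all 302 the signal had a median of 134 in the pooled list, a lowest value of 92.5 and a highest of 19717. The median was 138 for the 1000 promoter peaks, those with a summit in the window around a protein-coding start, and 137 for all nuclear reproducible peaks. The log2 ratio of the medians, between genes against promoters, was -0.04, which was about the size of the replicate spread of that ratio (SD 0.04, n = 2). Peaks between genes made up 17.1% of the strongest of 4 equal sections of the list, 14.3% and 15.8% of the next ones and 18.2% of the weakest, so their share followed no steady course with strength.

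Of the 302 peaks all had a region in replicate 1 whose summit lay within 200 bp, and 300 had one in replicate 2. In replicate 1 their signal had a lowest value of 10.1, a median of 43.9 and a highest of 6157. In replicate 2 it had a lowest value of 22.9, a median of 98.5 and a highest of 13623. A peak was called strong in a replicate where it shared at least 1 bp with 1 of that replicate's strongest regions, taken in the same number as the reproducible list has peaks. Of the 302, 203 were strong in both replicates (67.2%, exact 95% interval 61.6 to 72.5), against 73.3% of all nuclear reproducible peaks and 73.9% of promoter peaks. A further 62 were strong in replicate 2 only, 34 in replicate 1 only and 3 in neither. On X 59 of 77 were strong in both (76.6%, 65.6 to 85.5), and on the autosomes 144 of 225 (64%, 57.4 to 70.3), so the intervals overlap.

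**Figure D2:**
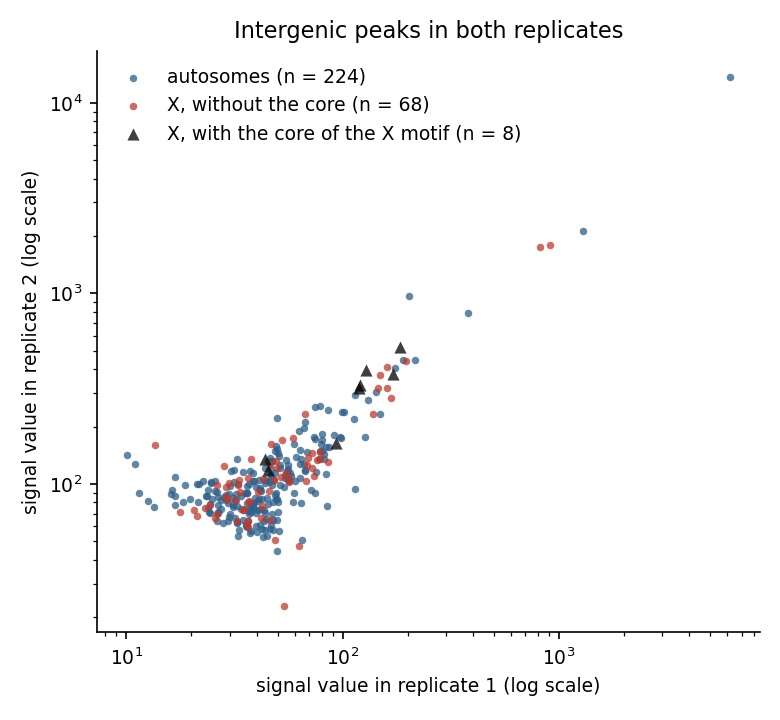
Signal of each peak between genes in replicate 1 against replicate 2, both on log scales, for 224 autosomal peaks, 68 on X without the core GCGCAGGG within 100 bp of the summit and 8 on X with it. The strongest peaks lie along a line, the spread is wider among weak ones, and a few peaks have low values in replicate 1 alone.

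Some peaks rested mostly on 1 replicate. After centring on the median log2 ratio of all nuclear peaks, 1.10 in favour of replicate 2, 26 of the 300 (8.67%) differed by more than 1 between replicates, against 6.84% of all nuclear peaks with both values. The peak far from Y37A1B.7 had 10.1 in replicate 1 and 143 in replicate 2, and the one near ftt-2, a 14-3-3 protein gene, 13.6 and 161. Values near gcy-3, a guanylyl cyclase gene, were 10.9 and 127, near lec-10, a galectin gene, 11.4 and 89.96, and near hmit-1.3, a myo-inositol transporter gene, 12.6 and 81.5. In the other direction, relative to the overall shift, the peak near dgk-1, a diacylglycerol kinase gene, had 53.5 in replicate 1 and 22.9 in replicate 2. Near R03E9.2 the values were 62.7 and 47.4, and near xbp-1, a transcription factor gene of the unfolded protein response, 64.7 and 51.1. Near let-19, a Mediator subunit gene, they were 49.8 and 44.6. A second summit near ins-13, an insulin-like gene, had 115 and 93.9, and its replicate 1 region is also that of the neighbouring summit. The peak beside the non-coding RNA gene Y54G2A.69, with 321 pooled, 202 in replicate 1 and 968 in replicate 2, is matched in replicate 2 to a region that is also that of a stronger peak in the same interval. In replicate 1, 13 of the 302 ranked beyond 5000, and in replicate 2, 1 did.

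The X chromosome held 77 of the 302 (25.5%, exact 95% interval 20.7 to 30.8), while it makes up 17.7% of the nuclear genome. Among the strongest regions of each replicate the share was 25.3% and 26.7% (mean 26.0% ± 0.978, SD, n = 2). All nuclear reproducible peaks lay on X in 22.3%, weak regions between genes in 23.9% and the 398 peaks in coding genes, those with a summit in a protein-coding gene outside the promoter window, in 24.9%, all inside the interval. Promoter peaks lay on X in 15.8%, a difference above the spread between replicates. There were 4.35 peaks between genes per Mb of X, and 2.15 to 3.41 per Mb of the autosomes. Their share was uneven over signal: 34.2% of those in the strongest of the 4 sections lay on X, then 27.3%, 17.8% and 22.6%, while of all nuclear peaks in these sections 24.2%, 23.4%, 20.8% and 20.8% did. The median signal was 163 on X and 131 on the autosomes for peaks between genes, and 138 on X for promoter peaks.

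For each word a window was scored as holding it or not, on both strands, in the 50 bp on each side of the summit and in windows of the same length 300 bp away for comparison. The core GCGCAGGG was found at 8 of the 77 summits on X (10.4%, exact 95% interval 4.59 to 19.4), at none of the flanking windows and at none of the 225 autosomal summits, which allows a share of up to 1.63% by the exact interval. Of all nuclear reproducible peaks 0.92% held it. On X these were 16 of 412 peaks (3.88%), and among them 4 of the 99 in coding genes (4.04%, 1.11 to 10.0, which overlaps the interval between genes) and 1.90% of promoter peaks, while of the 579 weak regions between genes on X none, which allows up to 0.635%. In the replicates' own lists the share on X was 10.4% and 7.69% (mean 9.04% ± 1.91, SD, n = 2). A word match is a description and not a site. This word and GAGACGCAG were chosen after the data were seen.

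The genome sequence holds 81 matches of the core on X and 233 on the autosomes, 4.57 and 2.82 per Mb. Within 100 bp of a reproducible summit lay 20 of the 81 on X and 4 of the 233 on the autosomes. Of these, 11 matches on X and none on the autosomes were at peaks between genes. Most matches on X thus had no reproducible peak. The 8 peaks with the core had signals from 163 to 707 with a median of 444, and all 8 were strong in both replicates. The 69 others on X had a median of 150, and 73.9% were strong in both. Among the 25 strongest peaks between genes on X, 6 held the core within 100 bp.

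Values of the 8 carriers differed among themselves. The peak 4001 bp past the start of W02H3.3 had 185 in replicate 1 and 520 in replicate 2, that at F20B6.9 171 and 378, and that at xol-1 129 and 396. At gtr-1 they were 120 and 333, and at F22H10.2 119 and 319. The other 3 were weaker, with 92.9 and 165 at T24D8.6, 43.8 and 136 at col-185, a collagen gene, and 45.3 and 119 at dpy-23, a clathrin adaptor subunit gene. Of the 8, 5 lay between convergent genes, a small count with a wide interval. Of all peaks between genes on X 31.2% did, of peaks in coding genes on X 32.3% and of all nuclear reproducible peaks on X 21.4%.

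**Figure D3:**
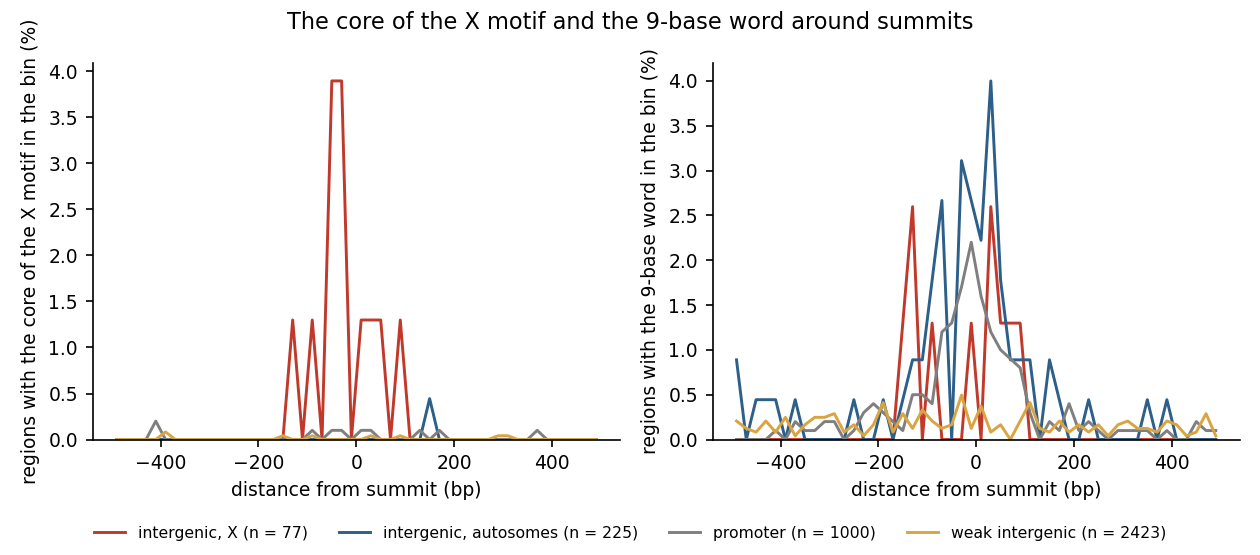
Share of regions with GCGCAGGG (left) and GAGACGCAG (right) by distance from the summit in bins of 20 bp, for peaks between genes on X (n = 77) and on the autosomes (n = 225), promoter peaks (n = 1000) and weak regions between genes (n = 2423). The left share reaches 3.90% in a bin on X, which is a few regions, and the right share is highest within about 100 bp of summits.

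GAGACGCAG was found at 25 of the 225 autosomal summits (11.1%, exact 95% interval 7.32 to 16.0) and at none of their flanking windows. On X the count was 3 of 77 (3.90%, 0.811 to 11.0). Of all nuclear reproducible peaks 7.04% held it. On the autosomes alone 7.80% of them did, which is inside the interval, 7.60% of promoter peaks and 1.52% of weak regions between genes. The replicates' own autosomal lists had 9.25% and 8.41% (mean 8.83% ± 0.594, SD, n = 2). The autosomal carriers had a median signal of 146 and 64% were strong in both replicates, the same share as the 200 others, whose median was 129. The strongest carriers were T04C4.3 with 438, rho-1, a small GTPase gene, with 273, and T19C3.4 with 267. GAGACGCAG was chosen after these summits were seen, so its gap to their flanking windows is a description only.

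GAGAGA was more common. It was found at 84 of the 302 summits (27.8%, exact 95% interval 22.8 to 33.2), in 7.45% of flanking windows, at 23.2% of all nuclear reproducible peaks and at 8.30% of weak regions between genes. On the autosomes 73 of 225 held it (32.4%, 26.4 to 39.0) and on X 11 of 77 (14.3%, 7.35 to 24.1), while on X 31.0% of promoter peaks, 13.1% of peaks in coding genes and 21.1% of all nuclear reproducible peaks did. Of promoter peaks on the autosomes 22.0% held it, below the interval there. Promoter peaks thus had the reverse order, with the higher share on X. The replicates' own lists gave 32.8% ± 1.52 on the autosomes and 16.8% ± 0.153 on X (SD, n = 2). For peaks between genes the share in these windows was lower on X than on the autosomes by more than the replicate spread. In windows of 100 bp to each side it was 35.1% on X (24.5 to 46.8) and 49.3% on the autosomes (42.6 to 56.1), so those intervals overlap. The word AAAAAA was at 19.9% of the 302 summits and in 49.5% of flanking windows, at 20.4% of all nuclear reproducible peaks and at 45.8% of weak regions between genes. TGATAA, a word bound by many zinc-finger factors of the worm gut and skin, was at 13.9% (10.2 to 18.3) and in 12.1% of flanking windows, which is inside the interval. It was at 8.39% of all nuclear reproducible peaks, 5.90% of promoter peaks, 10.6% of peaks in coding genes and 10.1% of weak regions between genes. CACGTG, an E-box, was at 5.96% (3.57 to 9.26), against 4.20% of promoter peaks and 1.65% of weak regions between genes. Of all nuclear reproducible peaks 4.49% held it. CACACA was at 12.3% of peaks between genes, 16.7% of promoter peaks, 5.61% of weak regions between genes and 14.3% of all nuclear reproducible peaks. In the same order of groups the word CGCGCA was at 7.62%, 10.1%, 2.02% and 8.50%. For GCGCGC the shares were 4.64%, 9.80%, 0.825% and 7.53%, and for the word GAANNTTC they were 4.97%, 4.50%, 6.23% and 4.17%. GGTTCGA, from the inner promoter of tRNA genes, was at 2.32% of the 302 summits, against 6.61% of all nuclear reproducible peaks and 12.8% of peaks in coding genes, and the rule removed peaks near tRNA genes from the 302. TTAGGC, the telomere repeat, was at 1.99% and at 2.11% of all nuclear reproducible peaks. CTGTTTCA, found upstream of piRNA genes, was at 0.331% and 0.379%, TTTCCCGC, an E2F-type word, at 1.32% and 1.03%, and TGACTCA, an AP-1 word, at 0.662% and 0.65%. Several words can overlap, as GAGAGA with GAGACGCAG and CGCGCA with GCGCAGGG or GCGCGC, so their counts are not separate.

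Ranking words of 6 letters gave like sequences. The 10 words with the largest excess over flanking windows on chromosomes II, III and V were led by AGAGAC, at 25.9% of summits there, 28% on IV and 13.0% on X. CGTCTC was at 23.0% there, 22% on IV and 10.4% on X. In flanking windows AGAGAC was at 4.07%, 4% and 2.60% in the same order, and CGTCTC at 2.22%, 4% and 5.19%. On X itself the leading word was CAGGGA, at 22.1% of summits and 0.649% of flanking windows, and at 2.22% of autosomal summits. CCCTGC followed with 18.2% on X and 1.33% on the autosomes. Their letters also occur in the core followed by A, read on 1 strand or the other. The whole core was at 10.4% of summits on X, so part of the summits with these words lack it. These 2 words were ranked by their excess on the same summits on X, so their gap to the flanking windows was part of the choice. The excess on II, III and V was likewise part of the choice there, while IV and X were not used for that list. Shares of the ranked words were not taken for promoter peaks or all nuclear reproducible peaks. The words are thus not shown to be particular to peaks between genes.

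**Figure D4:**
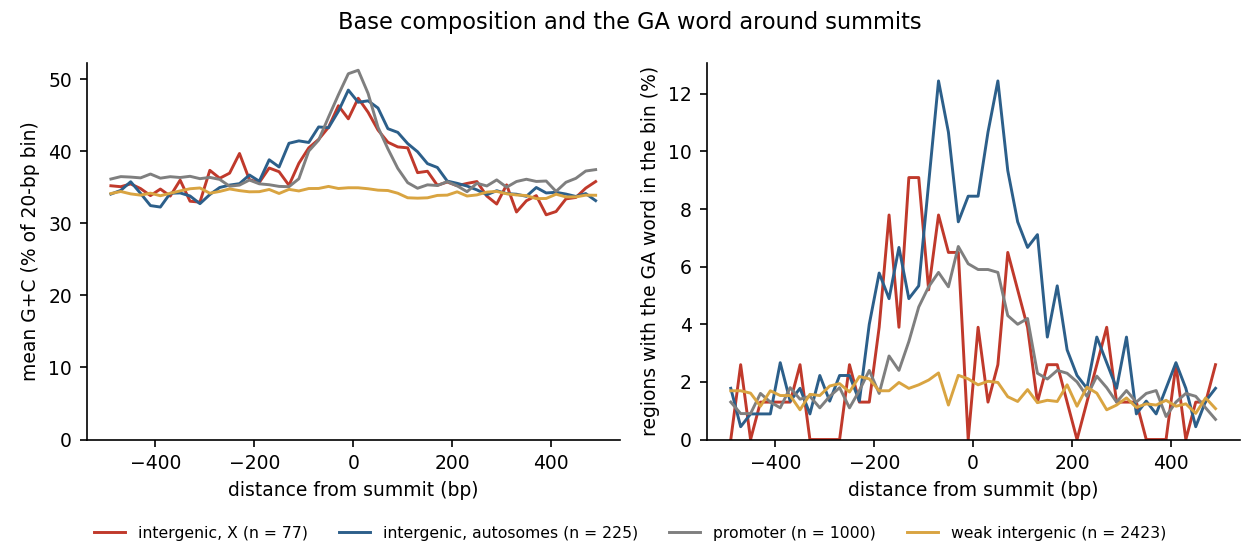
Mean G+C content (left) and share of regions with GAGAGA (right) by distance from the summit in bins of 20 bp, for the same 4 groups. At the bin just right of the summit the mean G+C was 47.3% on X, 46.8% on the autosomes, 51.2% in promoter peaks and 34.9% in weak regions between genes, and GAGAGA on the autosomes peaks beside the summit at 12.4%.

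The windows of 50 bp to either side of the summit had a median G+C content of 45.5% (range 22.8 to 68.3), against 48.5% for promoter peaks and 33.7% for weak regions between genes. Both replicates' own lists had a median of 45.5%. Soft-masked bases, those marked as repeats or low complexity in the genome file, took up a median of 10.4% of the window, against 17.8% and 35.6%. Sequence found again elsewhere (blastn identity of at least 80% over at least 50% of the 201 bp window) was seen at 20 of the 302 (6.62%, exact 95% interval 4.09 to 10.0), against 11.4% of all nuclear reproducible peaks, 8.20% of promoter peaks and 17.0% of weak regions between genes. The replicates' own lists had 9.87% and 7.53%, more than the pooled list. The difference depends on the limits: under stricter ones the share was 2.32% (0.937 to 4.72), against 4.09% of weak regions between genes, 1.60% of promoter peaks and 1.73% of all nuclear reproducible peaks, all inside the interval. Only 4 of the 302 had at least 10 copies, with 1717 for the most repeated one.

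Of peaks that share sequence with each other, 4 pairs were found. One pair lies beside snoRNA genes, C46C2.8 on IV and C53B7.8 on X. Their stretches align over 144 bp with 86.8% identity.
C46C2.8, chrIV:9191260-9191403, plus strand: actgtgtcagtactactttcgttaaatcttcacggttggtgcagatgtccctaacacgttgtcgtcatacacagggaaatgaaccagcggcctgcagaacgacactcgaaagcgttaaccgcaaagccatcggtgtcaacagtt
C53B7.8, chrX:6867866-6868009, minus strand: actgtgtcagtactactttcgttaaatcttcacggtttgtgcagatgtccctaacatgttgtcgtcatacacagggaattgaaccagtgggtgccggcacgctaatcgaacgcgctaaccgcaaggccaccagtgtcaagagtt
Their peaks had signals of 177 and 209, and each replicate had values of 63.6 and 107 at the first and of 78.3 and 135 at the second. Peaks on IV and V with 98.0% identity over 202 bp had 56 and 58 copies in the genome. The other pairs shared 99.1% over 113 bp and 85.2% over 128 bp. The sources used here do not say how reads of repeated sequence were placed, so a signal at such a peak may come from more than 1 place.

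Non-coding RNA genes lay within 500 bp of 67 summits (22.2%, exact 95% interval 17.6 to 27.3), against 18.0% of weak regions between genes, 27.2% of promoter peaks, 40.7% of peaks in coding genes and 32.7% of all nuclear reproducible peaks. Among the classes were the snoRNA genes, whose products guide the modification of ribosomal RNA. They were nearest at 14 of 302 peaks (4.64%, 2.56 to 7.66), against 0.289% of weak regions, 2.90% of promoter peaks and 5.03% of peaks in coding genes. Over all nuclear reproducible peaks the share was 3.57%, which is inside the interval. In the replicates' own lists the share was 5.59% and 4.79% (mean 5.19% ± 0.564, SD, n = 2). The summit lay upstream of the snoRNA start in 13 of the 14, and in 12 of these at a distance of 8 to 63 bp. The rule excluded windows around protein-coding and tRNA genes alone, so that starts of other RNA genes remain among the members. It also removed every summit inside a non-coding RNA gene. Promoter peaks, peaks in coding genes and all nuclear reproducible peaks keep such summits, so their shares are not on a like footing. With only protein-coding genes counted as genes, 29.9% of peaks between genes lay within 500 bp of a non-coding RNA gene.

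The strongest of the snoRNA peaks, 63 bp upstream of W03C9.9, had 330 pooled, 113 in replicate 1 and 219 in replicate 2. ZK20.9 had 251, 73.6 and 176, and T06C12.16 had 247, 86.6 and 156. At F30H5.4, where the summit lay 8 bp upstream, the values were 236, 79.1 and 162. The weakest, 411 bp downstream of K08F11.8, had 105, 31.0 and 76.0. Only 1 of the 14 lay on X.

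Among small RNA genes, those of piRNAs, which silence transposons in the germline, were nearest at 8 peaks, all on chromosome IV. This was 2.65% of the 302 (1.15 to 5.15), against 7.35% of weak regions between genes and 1.79% of all nuclear reproducible peaks. The miRNA genes mir-80, 250 bp from a summit with 173, and mir-53, 106 bp from a summit with 167, lay downstream of their peaks, and mir-239a (117) lay upstream of its own. The spliced leader gene sls-2.2 was 77 bp from the summit near ins-13. Other ncRNA genes, a class of mostly unnamed transcripts, were nearest at 39 peaks (12.9%), 20 of them with the summit upstream and 19 downstream. The share was 24.5% of all nuclear reproducible peaks, which keep summits inside such genes, while the rule removed these from the 302.

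**Figure D5:**
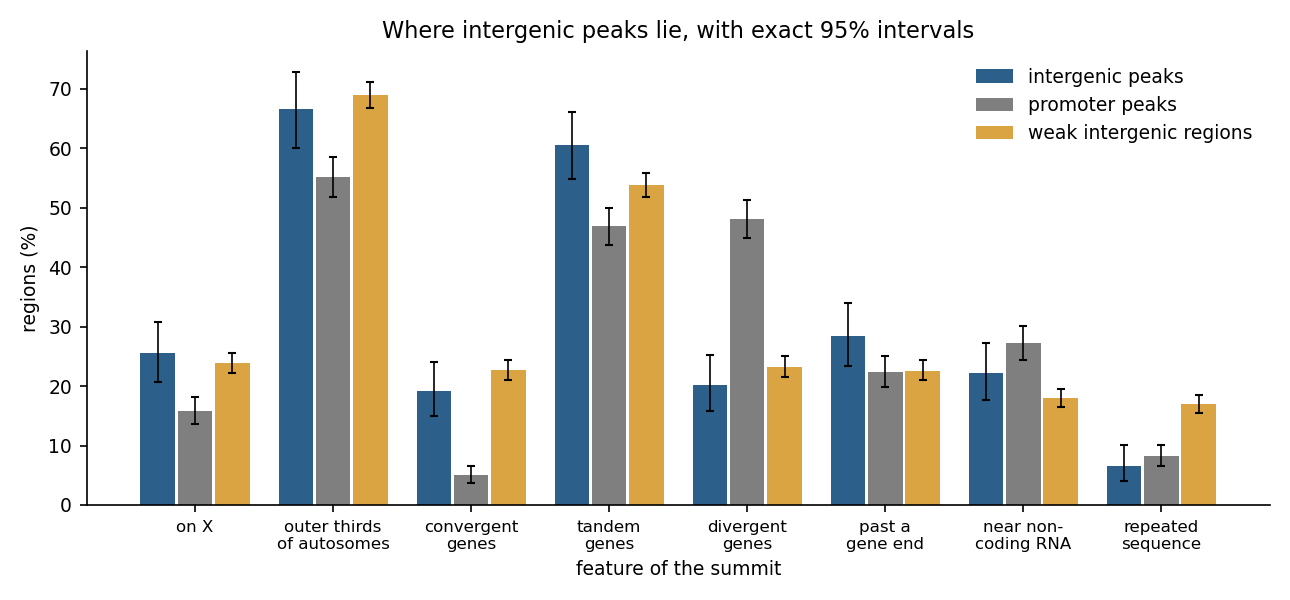
Share of peaks between genes (n = 302), promoter peaks (n = 1000) and weak regions between genes (n = 2423) with each feature, with exact 95% intervals for counting error, where gene ends and non-coding RNA genes lie within 500 bp of the summit. In repeated sequence, at the blastn limits given above, peaks between genes had 6.62% and weak regions 17.0%.

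The genes on either side of the summit pointed the same way in 60.6% of cases (54.8 to 66.1), away from each other in 20.2% (15.8 to 25.2) and towards each other in 19.2% (14.9 to 24.1). For promoter peaks the shares were 46.9%, 48.1% and 5.00%, and for weak regions between genes 53.9%, 23.3% and 22.7%. The replicates' own lists had 19.3% ± 1.59 convergent (SD, n = 2). On X 24 of 77 peaks lay between convergent genes (31.2%, 21.1 to 42.7), and on the autosomes 34 of 225 (15.1%, 10.7 to 20.5). All nuclear reproducible peaks were convergent in 21.4% on X and 13.0% on the autosomes, both inside these intervals. Peaks in coding genes on X were so in 32.3%, and weak regions between genes in 23.1% on X and 22.6% on the autosomes. The rule removes starts and thereby favours gene ends, so promoter peaks are no neutral standard here. A summit lay within 500 bp downstream of a coding gene's end in 86 of the 302 (28.5%, 23.5 to 33.9), against 22.6% of weak regions between genes and 21.7% of all nuclear reproducible peaks.

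Distance to the nearest protein-coding start had a median of 2296 bp, and 2519 bp in weak regions between genes. More than 2000 bp from a start lay 168 of the 302 (55.6%, 49.8 to 61.3), 70.1% of those on X and 50.7% of those on the autosomes. Weak regions between genes did so in 62.5%, with 65.8% on X and 61.4% on the autosomes. All nuclear reproducible peaks, promoter peaks included, did so in 37.1% on X and 18.1% on the autosomes. More than 5000 bp away were 34 of the 302 (11.3%), against 17.4% of weak regions between genes and 4.55% of all nuclear reproducible peaks. Farthest was the peak 13392 bp upstream of irld-18, with 187 pooled. Next came the peaks at mir-80, 11511 bp from the start of K01F9.2, and at Y37A1B.7, 10477 bp away. Peaks 8119 bp upstream of nhr-1, a nuclear receptor gene, and 7934 bp upstream of tra-1, the terminal regulator of sex determination, had 165 and 298. Upstream of aakg-1, an AMP-activated kinase subunit gene, a summit at 8261 bp had 155. The others of the farthest 10 were near F30H5.3, ckr-2, asp-13 and tatn-1, with 236, 95.5, 150 and 166.

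At the upstream edge of the rule, the closest peaks inside it lay 1003 bp upstream of cec-1 (signal 164), 1011 bp upstream of H05C05.2 (94.6) and 1017 bp upstream of ulp-4 (96.0). Just outside it, promoter peaks lay 996 bp upstream of T08G5.3 (168), 995 bp upstream of dhs-8 (281) and 992 bp upstream of acer-1 (124). On the autosomes 150 of 225 peaks lay in the outer parts of the chromosome (66.7%, 60.1 to 72.8). Outer parts are the first and last of 3 equal lengths, so an even spread along the chromosome would also give 66.7%. The share was 59.0% for all nuclear reproducible peaks on the autosomes and 55.2% for promoter peaks, both below the interval. It was 62.2% for peaks in coding genes and 69.0% for weak regions between genes, both inside it. Another reproducible peak lay within 1000 bp of 34 of the 302 and within 5000 bp of 128. Groups of 3 or more within 10 kb numbered 7, with 28 members. Beside those on V they included 3 peaks near the fatty acid desaturase genes fat-1 and fat-2 (108 to 159) and 3 near mxl-3, a bHLH transcription factor gene (109 to 136). Of the other 3 groups, 1 lay near C01G6.4, gldi-3 and mtrr-1 (114 to 194), 1 near T09F3.2 and ztf-27 (125 to 142), and 1 near F54F12.1 and Y39E4B.6 (110 to 212). Groups and nearby peaks were not counted for promoter peaks or all nuclear reproducible peaks. Such closeness is therefore not shown to be particular to peaks between genes.

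Families of nearest genes were counted by name patterns. Shares over all nuclear reproducible peaks were not taken for these families. Ribosomal protein genes were nearest to 0 of the 302, to 29 of the 1000 promoter peaks and to 0.289% of weak regions between genes. They make up 0.39% of coding genes, so 0 of 302 says little. Nuclear hormone receptor genes were nearest to 7 (2.32%), among them nhr-20, nhr-1 and nhr-17, against 1.30% of promoter peaks and 3.10% of weak regions between genes. Neuropeptide and insulin genes, with ins-13 and nlp-40, were nearest to 3 (0.993%), against 0.1% of promoter peaks and 0.70% of weak regions between genes. Chemoreceptor genes were nearest to 2 (srg-64 and srh-243, 0.662%), against 1.1% and 1.82%, and they make up 5.86% of coding genes. Membrane traffic genes were nearest to 1 (rab-10, 0.331%), against 1.3% and 0.0825%. The collagen and cuticle pattern took in col-185 and dpy-23, of which the latter is no collagen gene. F-box and BTB genes, C-type lectins, histones and ceh homeobox genes were nearest to none. In weak regions between genes their shares were also small, at 0.619%, 0.413%, 0.165% and 0.248%. Being nearest does not show that a gene is controlled from the peak. Regions are not replicates, all come from the same 2 libraries, and no test was made on these shares.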

How the data were processed

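ChIP-seq regions of 1 group of 2 biological replicates were analysed. Per the deposited readme files, the authors called regions for each replicate and for both pooled against a control, and kept reproducible peaks by an irreproducible discovery rate threshold. Aligner, caller, threshold and read numbers were not given in the sources used here. A deposited signal value is the authors' own, and its scaling is not stated. Lists on build ce10 were not used.

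Coordinates are those of ce11, counted from 1, with the WBcel235 sequence of RefSeq and Ensembl annotation release 115. Python 3.11.15, pandas 2.3.3, NumPy 2.4.6, SciPy 1.17.1 and blastn 2.17.0 were used, and the scripts were tested on simulated data. A peak was matched to the nearest summit of each replicate within 200 bp. As nearest summits were taken, the region matched to 2 peaks in replicate 1 and to 1 peak in replicate 2 is also that of another peak. For the spread, the same rules were applied to as many of the strongest regions of each replicate as the reproducible list holds. Those lists are part of the pooled data and are not independent of it. Exact binomial 95% intervals (Clopper-Pearson) cover only counting error. No test was made, since regions of the same libraries are not replicates, and p-values are not given.

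Flanking genes were those of any kind except piRNA, tRNA and very short genes. Peaks were named by rule: the 20 strongest, the 5 most unequal between replicates in each direction, the 10 farthest from a coding start, groups of 3 or more within 10 kb, pairs that share sequence, and 3 on either side of the edge at 1000 bp. Sequences were printed for the 5 strongest and for carriers of the named words. A set of 13 words was listed at the start, and 2 were added after the data were seen. The members, words and name patterns were chosen with earlier results of these data known. Alternatives were another promoter window, the stronger 50% of peaks, protein-coding genes alone, overlapping peaks counted once, other window lengths and distances, and each replicate alone.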

Additional observations from a re-analysis of the deposited data

How the results depend on the processing

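Of 79 alternatives over 10 results, 48 stayed within the spread between replicates or the counting interval and 31 did not. The share of peaks between genes follows the rule: it was 22.0% with a narrow promoter window (500 bp upstream to 100 bp downstream), 11.2% with a wide one (2000 bp to 500 bp) and 18.6% when only protein-coding genes counted as genes. The narrow window also moved the outer parts of autosomes to 62.4%, G+C content to 46.5% and convergent genes to 15.0%. The wide window moved the log2 ratio of median signals to promoter peaks to 0.0164, convergent genes to 25.1%, gene ends to 30.9% and GAGAGA to 22.7%. In the stronger 50% of peaks, 97.9% were strong in both replicates, the log2 ratio was 0.0213, G+C content 49.5%, convergent genes 21.4%, gene ends 30.3% and non-coding RNA genes 26.9%. The ratio was -0.04 as reported, so that its sign changes with these choices. The 97.9% follows largely from the choice of peaks, since the pooled list comes from the same 2 replicates. With protein-coding genes alone G+C content was 46.5% and non-coding RNA genes 29.9%. The first and last of 4 equal lengths, in place of 3, held 43.6%, where an even spread would give 50%. Windows of 100 bp gave a G+C content of 43.8% and GAGAGA at 45.7%. A distance of 200 bp gave 18.5% for gene ends and 15.9% for non-coding RNA genes, and stricter blastn limits gave 2.32% for repeated sequence (4.09% of weak regions). The cause of these moves was not tested beyond what each rule takes in.

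With either replicate alone, the share between genes ranged from 15.8% to 16.5%, the log2 ratio of medians from -0.0166 to 0.0396, outer parts from 63.4% to 67.8%, repeated sequence from 7.53% to 9.87%, gene ends from 27.1% to 28.6%, non-coding RNA genes from 23.3% to 26.0% and GAGAGA from 27.7% to 29.6%. No paired analysis was possible because the design holds 1 group. Read numbers are unknown, so depth could not be weighed, and counts of under 10 regions, such as the carriers of GCGCAGGG, have wide intervals.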
